A study of Mus musculus with 36 samples.

Results

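The mechanosensitive and transforming growth factor beta (TGF-beta) genes described here are 9 genes read in the gastrocnemius muscle of mice that ran set distances on a high-fat diet. They are the TGF-beta ligands Tgfb1, Tgfb2 and Tgfb3, the matricellular genes Ccn1 and Ccn2, the sarcomere-linked genes Ankrd1, Ankrd2 and Csrp3, and the receptor gene Tnfrsf12a. They were chosen by gene name, and all 9 were found among the 46893 features of the count table. The choice was made with earlier results of these data known and which values drew each gene in was not recorded, so every fitted value and p of a member gene below is a description and not independent support. The muscles came from 36 wild-type male C57BL/6 mice that were 3 to 4 weeks old on arrival in the study, in 6 groups of 6 that were followed for 12 weeks. HFD-C mice ate the high-fat diet and were the sedentary control of the exercise groups. The same diet was given to 3 groups with an in-cage wheel whose brake was applied at an assigned daily distance, averaging 2.1 (HFD-25%), 4.2 (HFD-50%) and 6.3 km/day (HFD-75%). HFD-U mice could run without limit and averaged 8.3 km/day. Below, values given in order of distance run from HFD-25% to HFD-U. NFD-C mice are labelled with the diet NFD and as controls, and no running distance is given for them. Running was voluntary, the restricted distances were set as a share of the unrestricted one, and the muscle was taken whole, so its fibres, vessels, nerves and connective tissue were read together.

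TGF-beta ligands are secreted in a latent form, are released by integrins and proteases, and act through serine/threonine kinase receptors and SMAD proteins. In skeletal muscle the pathway is known for matrix deposition and for restraint of muscle growth. Ccn1 and Ccn2 encode secreted matrix-associated proteins that are textbook targets of YAP and TAZ, the stretch-responsive partners of TEAD transcription factors, and Ccn2 is also a classic TGF-beta target. Ankrd1 and Ankrd2 encode ankyrin repeat proteins that bind the elastic part of titin, and Csrp3 encodes muscle LIM protein of the Z-disc. Tnfrsf12a encodes Fn14, the receptor of the cytokine TWEAK, and the receptor is known to be induced in injured or disused muscle.

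Promoter sequence is shown for the member gene that passed the test across groups, Tgfb2, for the pair Ccn1 and Tnfrsf12a, which moved together between mice of a group, and for Ankrd1, a TEAD target for comparison. The table of RefSeq promoters (build GRCm38.p6) matched 7 of the 9 genes. Each sequence holds the 250 bases before the annotated start, read 5′ to 3′ on the gene's strand, which is the minus strand for all 4. Capitals mark matches to the TEAD letters GGAATG, the SMAD letters CAGACA, the cAMP response element TGACGTCA, the AP-1 letters TGANTCA, the E-box CACGTG or the CArG box of SRF, each searched on both strands with no overlap among the matches.
Tgfb2 (chr1:186705990-186706239): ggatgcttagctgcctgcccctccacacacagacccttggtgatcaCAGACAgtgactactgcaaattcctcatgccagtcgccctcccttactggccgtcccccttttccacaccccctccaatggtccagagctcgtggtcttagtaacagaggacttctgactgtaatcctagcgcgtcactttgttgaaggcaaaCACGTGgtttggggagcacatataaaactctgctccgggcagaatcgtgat
Ccn1 (chr3:145649986-145650235): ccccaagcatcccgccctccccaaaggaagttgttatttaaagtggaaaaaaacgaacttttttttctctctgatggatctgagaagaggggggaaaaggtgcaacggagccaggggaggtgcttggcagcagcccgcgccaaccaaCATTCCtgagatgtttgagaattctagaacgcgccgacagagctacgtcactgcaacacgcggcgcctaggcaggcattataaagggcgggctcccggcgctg
Tnfrsf12a (chr17:23677450-23677699): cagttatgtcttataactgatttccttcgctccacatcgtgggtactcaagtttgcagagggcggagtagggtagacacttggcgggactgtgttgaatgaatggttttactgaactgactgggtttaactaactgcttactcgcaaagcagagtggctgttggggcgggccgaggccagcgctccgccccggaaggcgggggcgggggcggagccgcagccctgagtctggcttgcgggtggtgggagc
Ankrd1 (chr19:36119845-36120094): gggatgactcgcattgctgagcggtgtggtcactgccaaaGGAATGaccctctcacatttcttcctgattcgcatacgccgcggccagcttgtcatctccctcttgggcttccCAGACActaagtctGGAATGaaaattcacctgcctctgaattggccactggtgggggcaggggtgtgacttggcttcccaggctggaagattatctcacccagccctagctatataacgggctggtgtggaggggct

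The Tgfb2 window held 1 SMAD match 204 bases before the start and 1 CACGTG match 51 bases before it. The Ccn1 window held 1 TEAD match, written CATTCC on this strand, 103 bases before the start. The Ankrd1 window held 2 TEAD matches, 210 and 123 bases before the start, with a SMAD match between them. None of the searched letters was found in the Tnfrsf12a window, which says nothing about the factors. Among 32851 RefSeq promoter windows of this length, 12.6% held the TEAD letters, 17.1% the SMAD letters and 6.02% CACGTG, against 6.75% for AP-1, 1.55% for the cAMP response element and 1.47% for the CArG box. A match is a description of the letters and not a bound site.

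The libraries held 13060090 to 27981702 counts on genes. Values below are CPM, the counts of a gene scaled to the TMM-adjusted total of its library. Skeletal muscle markers were high in every library, with summed CPM of 7 of them between 76404 and 151377, although the fast myosin light chain gene Mylpf was listed at only 0.181 to 2.95 CPM. Ribosomal RNA-linked features took 0.404 to 1.02% of the counts in the 24 running mice and 2.01 to 3.80% in NFD-C. In HFD-C, 4 libraries lay on the high side of this split and 2, replicates 5 and 6, on the low side. Running and this feature of the libraries therefore coincide except in those 2 mice, and values for them are given beside the results below. Expressed per kilobase of gene length, the mean level over 36 mice was highest for Csrp3 (181 ± 140 CPM per kb, SD) and Ankrd2 (125 ± 83.4). Tnfrsf12a (17.1 ± 11.9), Ccn1 (14.6 ± 5.64), Ccn2 (10.6 ± 3.26), Ankrd1 (6.13 ± 2.29) and Tgfb3 (5.38 ± 0.995) came next on this scale. Tgfb1 (2.03 ± 0.722) and Tgfb2 (1.51 ± 0.529) were lowest, at 36 to 150 and 83 to 535 counts per library. The 2 abundant sarcomere genes were also the most variable, as the wide bars in the plot of CPM by mouse show.

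**Figure D1:**
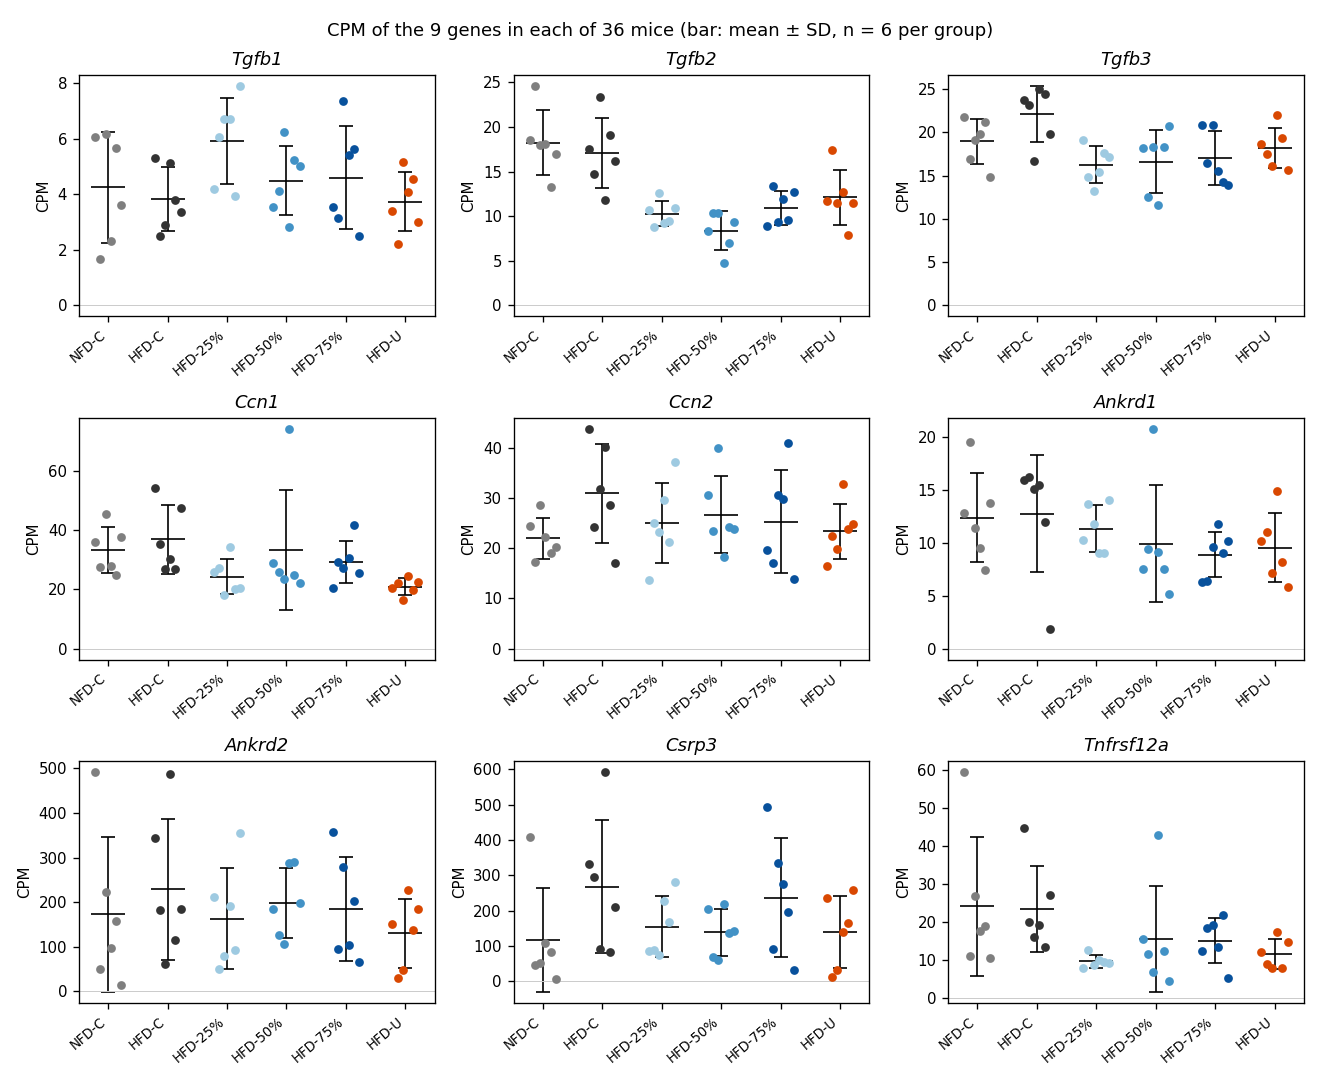
CPM (linear axis) of each gene in each of 36 mice by group, with black bars for the mean and SD over 6 mice. Tgfb2 shows the clearest step between the control groups (means of 18.2 and 17.1) and the 4 running groups (8.36 to 12.1), while Ankrd2 and Csrp3 spread widely inside every group.

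Each running group was compared with HFD-C to ask what a given distance does on this diet. Tgfb2 (chr1:186354984-186441504, minus strand, GRCm39) was lower in running mice at each distance. Its level was 11.8, 16.8 and 23.3 CPM (lowest, median, highest) in HFD-C and 13.3, 18.002 and 24.6 in NFD-C. The HFD-25% mice read 8.82, 10.1 and 12.6, and the HFD-50% mice 4.80, 8.82 and 10.4. The HFD-75% mice read 8.88, 10.7 and 13.3, and the HFD-U mice 7.87, 11.6 and 17.4. Every HFD-50% mouse lay below every HFD-C mouse, which 0.429% of genes showed in this comparison, and 18 of 24 running mice lay below all 12 control mice. The only running mouse above the HFD-C median was HFD-U replicate 2. The log2 fold change against HFD-C was, in order of distance, -0.73 (SE 0.16), -1.03 (SE 0.20), -0.64 (SE 0.16) and -0.49 (SE 0.19). Adjusted over all genes in edgeR, none of these 4 passed, with adjusted p of 0.241, 0.108, 0.397 and 0.790, although the unadjusted p was at most 0.05 in each. The HFD-50% value did pass in 3 other edgeR fits, with adjusted p of 0.0189 with no minimum count, 0.0228 with the replicate block and 0.00197 in 1 fit over all 36 libraries. DESeq2 gave adjusted p of 0.0197, 0.00142, 0.0848 and 0.564. These 4 comparisons share the HFD-C mice. Tgfb2 changed among the 6 groups (adjusted p = 0.000395, edgeR F-test) and with distance in a quadratic fit over the 5 high-fat groups (adjusted p = 0.0108), where 1.45% and 0.683% of all genes passed. The distance fit tests both its terms together with HFD-C at 0 km/day. It therefore cannot tell a graded change from a step between sedentary and running mice. The distance result was lost with the 2 low-share HFD-C mice as the only controls (adjusted p = 0.139), without the mice numbered 1 (0.0747) and with tendon markers as a covariate (0.0513), all in edgeR. Tgfb2 was the only member gene to pass either test in the reported fits. NFD-C and HFD-C differed by less than the SE (log2 0.10, SE 0.17, edgeR adjusted p = 0.9996).

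The ordering of the running groups for Tgfb2, with HFD-50% lowest and HFD-U highest, was not firm. HFD-50% lay below HFD-U by a log2 fold change of -0.54 (SE 0.20, edgeR adjusted p = 0.320), with all 6 HFD-50% mice under the HFD-U median and 2 under its lowest mouse. Its unadjusted call was lost with the ribosomal share (-0.21), the slow fibre level (-0.42) or the tendon level (-0.37) as a covariate, and without HFD-U replicate 2 (-0.41). Of 9 slow fibre markers, 8 were higher in HFD-50% than in HFD-U at an unadjusted p, where 7.08% of all genes were. The list median was 1.99 on the log2 scale, and the part of these markers in the result was not tested. The edgeR test among the 4 running groups gave an adjusted p of 0.650 for Tgfb2 and higher ones for the other 8 genes. None of the 9 passed, where 0.0251% of all genes did, and Tgfb2 alone was called without adjustment. DESeq2 called none of the 9 after adjustment, where it called 50 of 11935 genes. Among the 45 pairs of neighbours in the order of group means over the 9 genes, 1 differed by more than the larger SD, namely Tgfb2 between HFD-C and HFD-U (4.95 CPM against an SD of 3.94).

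Because running coincided with the ribosomal split, Tgfb2 was read in the 2 low-share HFD-C mice, which stood at 16.1 and 19.04 CPM, near the HFD-C mean. Against these 2 mice alone the log2 fold changes were -0.76, -1.07, -0.68 and -0.54 in order of distance. With the ribosomal share as a covariate they were -0.78, -1.11, -0.74 and -0.59, and the adjusted p among the 6 groups became 0.0564. Of 8 fibroblast markers, all tested, 3, 2, 4 and 2 were lower at an unadjusted p in order of distance, where 3.58, 4.89, 3.16 and 3.31% of all genes were, with a summed level of 436 to 735 CPM in HFD-C and medians of 478, 451, 441 and 469 in the running groups against 533. Of 8 tendon and myotendinous junction markers, of which 5, 5, 6 and 6 were tested, 2, 3, 0 and 1 were lower, with Mkx at 0 in 6 libraries. The part of these markers in the result was not tested. With the fibroblast level as a covariate, chosen after the data were seen, the Tgfb2 log2 fold changes were -0.72, -0.86, -0.69 and -0.44, and with the tendon level -0.77, -0.93, -0.68 and -0.50. In whole muscle, fewer cells of a type and less RNA per cell cannot be told apart.

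**Figure D2:**
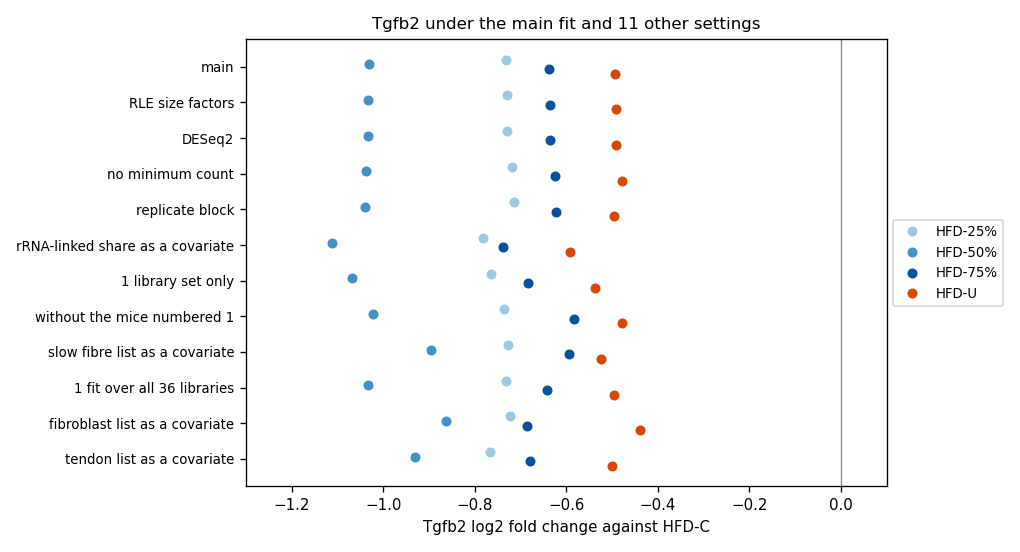
Tgfb2 log2 fold change against HFD-C (x axis) in each running group (colours) under the reported edgeR fit and 11 other settings (rows). All 44 alternative points lie below 0, between -1.11 and -0.44.

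Tgfb3 (chr12:86103517-86125815, minus strand) showed a smaller and more even difference. It stood at 16.7, 23.5 and 25.03 CPM (lowest, median, highest) in HFD-C, with running medians of 16.3, 18.2, 16.004 and 18.1 in order of distance. All 24 running mice lay under the HFD-C median, and 11 lay under its lowest mouse. The log2 fold changes were -0.45 (SE 0.13), -0.41 (SE 0.16), -0.38 (SE 0.14) and -0.28 (SE 0.12), each at an unadjusted p of at most 0.05. None passed the adjustment in edgeR, where adjusted p ran from 0.377 to 0.890, and the dose fit gave an adjusted p of 0.190. All 6 NFD-C mice lay under the HFD-C median as well, at 14.9 to 21.8 CPM, so the running groups overlapped NFD-C. The 2 low-share HFD-C mice read 24.4 and 19.9 CPM. Against these 2 mice alone the unadjusted call was lost in HFD-50%, HFD-75% and HFD-U. With the ribosomal share as a covariate it was lost in HFD-75% and HFD-U. The log2 fold changes stayed below 0 in each of the 11 other settings. The HFD-U value passed an unadjusted p of 0.05 in 4 of 12 fits that left out 1 mouse.

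Tgfb1 (chr7:25386406-25404503, plus strand), a broadly expressed ligand, pointed the other way in HFD-25%. It stood at 2.48, 3.58 and 5.31 CPM in HFD-C and at 3.94, 6.38 and 7.91 in HFD-25%, where 4 of 6 mice exceeded the highest HFD-C value. The log2 fold change was 0.63 (SE 0.24, edgeR adjusted p = 0.622) there, and 0.23 (SE 0.25), 0.27 (SE 0.28) and -0.04 (SE 0.25) at the longer distances. At 36 to 150 counts per library these last 3 differences were within about 1 SE of 0. The 2 low-share HFD-C mice read 3.37 and 3.80 CPM. The 3 ligands thus gave separate readings, with Tgfb2 lower, Tgfb3 lower by less, and Tgfb1 higher in 1 group, and only the Tgfb2 reading passed an adjusted test.

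Ccn1 (chr3:145352726-145355740, minus strand) was lowest in HFD-U. It stood at 26.7, 32.7 and 54.3 CPM in HFD-C and at 16.4, 21.3 and 24.4 in HFD-U, with all 6 HFD-U mice below every HFD-C mouse, which 0.208% of genes showed. The log2 fold change was -0.81 (SE 0.18, adjusted p = 0.254 in edgeR and 0.0124 in DESeq2) in HFD-U and -0.60 (SE 0.20, adjusted p = 0.510) in HFD-25%. In HFD-75% it was -0.33 (SE 0.20). For HFD-50% it was -0.14 (SE 0.29), with replicate 4 at 74.1 CPM and the other 5 mice at 22.02 to 28.9. Without that mouse the HFD-50% value became -0.56 (SE 0.18, edgeR adjusted p = 0.283), and Ccn1 passed the test among the 6 groups (adjusted p = 0.0440, against 0.232 with it). Against HFD-U, HFD-50% read 0.67 higher (SE 0.27) with that mouse and 0.25 (SE 0.11) without it on the log2 scale, and -0.00795 with the ribosomal share as a covariate. The 2 low-share HFD-C mice read 26.8 and 47.5 CPM.

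Ccn2 (chr10:24471340-24474581, plus strand) differed less. It stood at 17.03, 30.2 and 43.8 CPM in HFD-C, and the running medians were 24.1, 24.001, 24.7 and 23.1 in order of distance. The log2 fold changes of -0.31 (SE 0.24), -0.21 (SE 0.22), -0.28 (SE 0.26) and -0.40 (SE 0.21) did not pass even an unadjusted p of 0.05. The 2 low-share HFD-C mice read 17.03 and 28.7 CPM, and against them alone the values were above 0, at 0.13, 0.23, 0.15 and 0.03. NFD-C, at 17.3, 21.2 and 28.6 CPM, was lower than HFD-C at an unadjusted p (log2 -0.49, SE 0.20, edgeR adjusted p = 0.9996), and 4 of the 12 fits without 1 mouse lost that call. In the reported fit no other member gene reached an unadjusted p of 0.05 between the diets.

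Tnfrsf12a (chr17:23894419-23896423, minus strand) was the member gene furthest from HFD-C in HFD-25%. It stood at 13.3, 19.5 and 44.7 CPM in HFD-C and at 7.82, 9.25 and 12.6 in HFD-25%, where all 6 mice lay below every HFD-C mouse, as 0.213% of genes did. The log2 fold change was -1.29 (SE 0.25, adjusted p = 0.133 in edgeR and 0.000834 in DESeq2) in HFD-25% and -1.03 (SE 0.28, adjusted p = 0.493) in HFD-U, at 7.89, 10.4 and 17.3 CPM. With no minimum count the HFD-25% value passed in edgeR too (adjusted p = 0.0192). The 2 low-share HFD-C mice read 13.3 and 27.1 CPM. The HFD-75% value was -0.62 (SE 0.32) and the HFD-50% value -0.57 (SE 0.45). HFD-50% replicate 4, high for Ccn1, was also high here at 42.8 CPM, against 4.29 to 15.5 in the other 5. Without it the HFD-50% value was -1.21 (SE 0.34, edgeR adjusted p = 0.197). Mice numbered 1 in both control groups were high too, at 59.3 CPM in NFD-C and 44.7 in HFD-C. Without the mice numbered 1 the values in order of distance were -0.94, -0.28, -0.28 and -0.75, and with the ribosomal share as a covariate -0.93, -0.16, -0.18 and -0.62. Outside HFD-25% the value thus moved by over 1.5 times in HFD-50%, HFD-75% and, with the share, HFD-U. Tnfrsf12a overlaps the last 80 bases of Hcfc1r1 on the opposite strand. Whether counting used strand was not stated, and reads from that stretch could not be assigned. Hcfc1r1 read 62.8 ± 15.5 CPM (SD, n = 6) in HFD-C and 55.8 ± 8.93 (SD, n = 24) over the running mice.

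In the reported fits the titin-linked genes Ankrd1, Ankrd2 and Csrp3 did not reach an unadjusted p of 0.05 in any comparison. Some other settings called Csrp3 without adjustment in HFD-25%, HFD-50% and NFD-C, and Ankrd2 in HFD-U. With no minimum count all 4 of these were called, at an unadjusted p of 0.0396, 0.0141, 0.0350 and 0.0453 in edgeR, none of them after adjustment (adjusted p of 0.412 to 0.553). Ankrd1 (chr19:36089365-36097244, minus strand) stood at 12.0 to 16.3 CPM in 5 HFD-C mice and at 1.85 in the sixth, one of the low-share mice. The running medians were 11.03, 8.34, 9.36 and 9.21 CPM, and 23 of 24 running mice lay under the HFD-C median of 15.3. With all mice the log2 fold changes were -0.18 (SE 0.33), -0.36 (SE 0.40), -0.52 (SE 0.35) and -0.42 (SE 0.36). Without the HFD-C mouse at 1.85 they were -0.40 (SE 0.15), -0.58 (SE 0.28), -0.75 (SE 0.17) and -0.64 (SE 0.20), with edgeR adjusted p of 0.585, 0.488, 0.230 and 0.454. Leaving out this single control library brought Ankrd1 under an unadjusted p of 0.05 in HFD-25%, HFD-75% and HFD-U, but not in HFD-50%. The other low-share mouse read 11.99 CPM, and against these 2 mice alone the values were above 0, at 0.71, 0.52, 0.34 and 0.45.

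Ankrd2 (chr19:42024358-42033550, plus strand) ranged over 13.9 to 491 CPM in NFD-C, 62.1 to 487 in HFD-C and 30.3 to 227 in HFD-U, so the groups lay over each other. Its log2 fold changes against HFD-C ran from -0.81 (SE 0.49) in HFD-U to -0.20 (SE 0.40) in HFD-50%. The 2 low-share HFD-C mice read 114 and 186 CPM, and against them alone the values in order of distance were 0.13, 0.42, 0.30 and -0.20. With the replicate number as a block, a pairing that the labels do not give, the HFD-U value was -0.80 (SE 0.30, edgeR adjusted p = 0.397), at an unadjusted p of 0.0199. Csrp3 (chr7:48480146-48497799, minus strand) ranged over 84.1 to 592 CPM in HFD-C and 60.1 to 219 in HFD-50%, with all 6 HFD-50% mice under the HFD-C median (log2 -0.94, SE 0.44, edgeR adjusted p = 0.466). The 2 low-share HFD-C mice read 84.1 and 209.6 CPM, and against them alone the values in order of distance were 0.09, -0.06, 0.71 and -0.07. In NFD-C it read 409 CPM in replicate 1 and 7.68 to 110 in the other 5. The NFD-C log2 fold change was -1.18 (SE 0.67, edgeR adjusted p = 0.9996) with that mouse and -2.16 (SE 0.57, adjusted p = 0.431) without it.

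Counted together, 33 of the 36 log2 fold changes of member genes between a running group and HFD-C were below 0, and the 3 above 0 were all of Tgfb1. This tally depended on the controls, with 19 of 36 below 0 against the 2 low-share HFD-C mice alone and 17 with the ribosomal share as a covariate. Under the other settings fitted to the groups, single mice left out aside, it was 29 to 33. With the threshold at an unadjusted p of 0.05, 5 of 9 genes were called at the shortest distance (1 higher, 4 lower), where 6.98% of all genes tested were called, 3.4% higher and 3.58% lower. In HFD-50% 2 of 9 were called, both lower, against 10.7% of all genes, 5.8% higher and 4.89% lower. In HFD-75% 2 of 9 were lower, against 5.47% of all genes called, 2.31% higher and 3.16% lower. In HFD-U 4 of 9 were lower, against 5.46% called, 2.15% higher and 3.31% lower. Between NFD-C and HFD-C 1 of 9 was lower, against 4.12% called, 1.98% higher and 2.14% lower. Between HFD-50% and HFD-U 2 of 9 were called, Ccn1 higher and Tgfb2 lower, against 12.4% of all genes, 7.08% higher and 5.34% lower. The unadjusted test called 4 of 9 among all 6 groups (12.2% of all genes), 2 of 9 with distance (12.2%) and 1 of 9 among the running groups (7.27%). The median log2 fold change of the 9 genes was -0.49, -0.36, -0.33 and -0.49 in order of distance, beside medians of -0.01 to 0.01 over all genes. No member gene passed the adjusted test between any pair of groups in the reported edgeR fits, where 0.0082% of all genes did in HFD-25%, 0.00844% between HFD-50% and HFD-U, and 0% in the others. DESeq2 called Tgfb2 and Tnfrsf12a in HFD-25%, Tgfb2 in HFD-50% and Ccn1 in HFD-U after adjustment. It called more genes than edgeR, with 44 of 12202, 160 of 12116, 40 of 12113 and 28 of 12023 over all genes in order of distance. Nothing is read from these counts about the set, since the genes were chosen with such results known. In HFD-50% the count went from 2 to 5 without replicate 4, when Ccn1, Csrp3 and Tnfrsf12a were added. Over all genes 1191 of 12100 were then called, against 1296 of 12116 with that mouse.

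**Figure D3:**
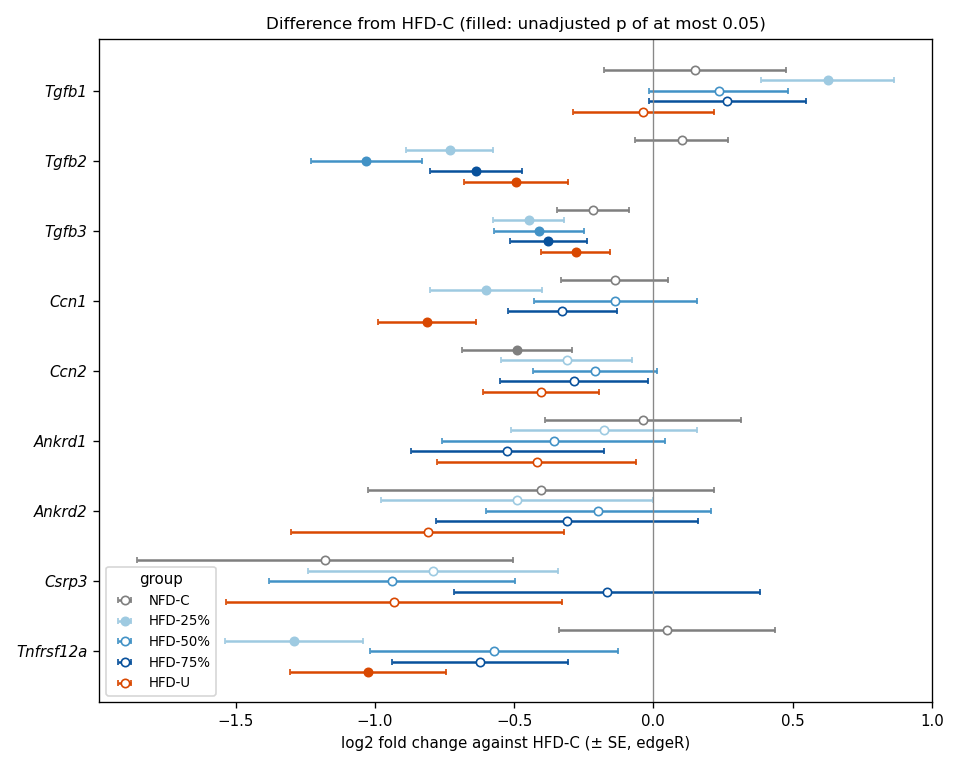
Log2 fold change against HFD-C with its SE (x axis) for each gene (rows) in NFD-C and the 4 running groups (colours), from edgeR. Filled points mark an unadjusted p not above 0.05. Tgfb2 and Tgfb3 are filled for all 4 running groups and lie left of 0, while Tgfb1 is filled on the right for HFD-25%.

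Within groups, mice deviated from their group mean along separate lines for different member genes. These correlations over 36 mice are descriptions, since the values share libraries and depth. Ankrd2 and Csrp3 went together (Pearson r = 0.86), and Ankrd2 followed the level of 9 slow fibre genes (r = 0.77), which spanned 52.4 to 4512 summed CPM over the mice. Their nearest neighbours among 12053 genes included several sarcomere genes. For Ankrd2 these were Myoz2 (r = 0.96), a Z-disc protein of slow fibres, Actn2 (r = 0.925), the Z-disc actinin, and the unnamed Gm41757 (r = 0.92). For Csrp3 they were Smtnl1 (r = 0.96), Myom3 (r = 0.935), an M-band protein, and Myoz2 (r = 0.91). Ccn1 and Tnfrsf12a went together (r = 0.68, and 0.52 without the 2 mice furthest from the median of Ccn1). Tnfrsf12a was nearest to Atf3 (r = 0.81), a stress-induced transcription factor, Ifrd1 (r = 0.80) and Hspa1a (r = 0.79), an inducible heat shock protein. Ccn1 was nearest to Asb11 (r = 0.77), Atp6v1h (r = 0.74) and Ifrd1 (r = 0.72). HFD-50% replicate 4 is an extreme point of these relations, as the plot of deviations shows.

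**Figure D4:**
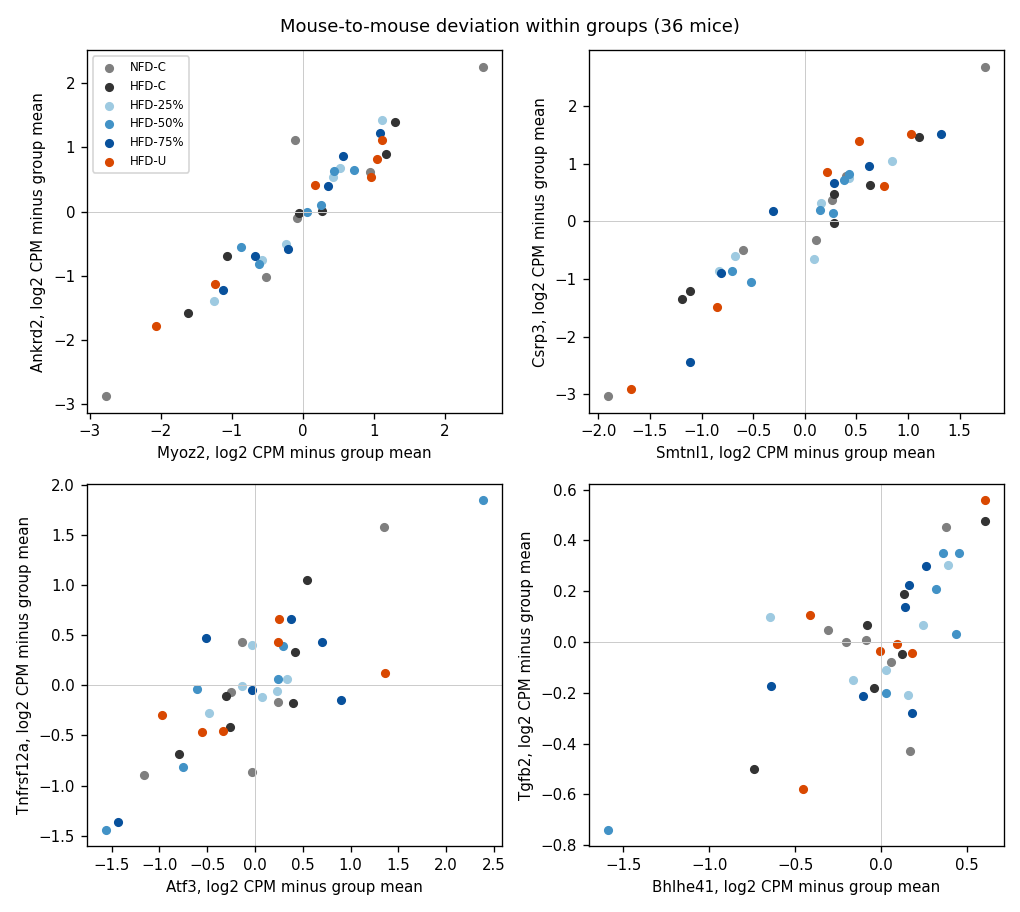
Deviation of log2 CPM from the group mean in each of 36 mice for 4 member genes (y axes) against one of the genes nearest to each (x axes), coloured by group. Ankrd2 with Myoz2 and Csrp3 with Smtnl1 form tight lines (r = 0.96 each), and Tgfb2 with Bhlhe41 is looser (r = 0.71).

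Ccn2 had an r of 0.06 with Ccn1 (0.16 without 2 mice) and went with Tgfb1 (r = 0.62) and with the fibroblast markers (r = 0.58). Its neighbours were Adcy7, an adenylyl cyclase (r = 0.81), Serping1, the complement C1 inhibitor (r = 0.81), and Trim47 (r = 0.80). Tgfb1 was nearest to Elovl1 (r = 0.73), Ifngr1, an interferon gamma receptor chain (r = 0.72), and Emilin1, an elastic fibre protein (r = 0.72). Tgfb2 was nearest to Cited4 (r = 0.72), Bhlhe41, a repressor of the circadian system (r = 0.71), and Jarid2, a partner of Polycomb complexes (r = 0.705), and it ran against Csrp3 (r = -0.50) and Ankrd2 (r = -0.45). Tgfb3 was nearest to Endog (r = 0.72), Pam (r = 0.71) and Znrf1 (r = 0.71). Ankrd1 was nearest to Eya2 (r = 0.73), Ccl11 (r = 0.72) and Spry2 (r = 0.71), at 0.50, 0.48 and 0.59 without 2 mice, and its r of 0.63 with the tendon markers was 0.27 without 2 mice. Between Tgfb2 and Tgfb3 the correlation was -0.13, and -0.35 without the 2 mice furthest from the median of Tgfb2.

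Beside the list counts at an unadjusted p below, 3.4, 5.8, 2.31 and 2.15% of all genes were higher in order of distance. The shares lower were 3.58, 4.89, 3.16 and 3.31%. Of 14 TGF-beta receptors and SMADs, all tested, 1 was higher in HFD-50% and none was called in the other running groups. List medians were -0.04 to 0.06 beside -0.01 to 0.01 over all genes. That gene was the endothelial co-receptor Eng, at 37.8 ± 11.1 CPM in HFD-C and 53.0 ± 7.51 in HFD-50% (SD, n = 6 each). It stood beside endothelial markers, of which 4, 3, 2 and 0 of 8 were higher in order of distance, with summed medians of 280, 258, 231 and 211 CPM against 211 in HFD-C, and their part in the value was not tested. The inhibitory Smad6 read 4.71 ± 1.79 CPM in HFD-C and 3.28 ± 0.835 in HFD-50%, without a call. Of 11 genes for latency and activation, 9 of them tested, 2, 2, 1 and 1 were lower and none higher, with list medians of -0.04, -0.21, -0.17 and -0.26. Itgb6, a chain of an integrin that releases latent TGF-beta, read 33.6 ± 6.95 CPM in HFD-C. In order of distance it read 26.6 ± 5.18, 20.2 ± 7.19, 20.6 ± 7.44 and 27.5 ± 4.04. It was lower at an unadjusted p in HFD-25%, HFD-50% and HFD-75%, with log2 fold changes of -0.34 (SE 0.16), -0.74 (SE 0.25) and -0.71 (SE 0.20). The edgeR adjusted p were 0.705, 0.293 and 0.482. Ltbp3, a latent TGF-beta binding protein, was lower at an unadjusted p in HFD-50% (log2 -0.31, SE 0.13, edgeR adjusted p = 0.422) and HFD-U (log2 -0.36, SE 0.11, edgeR adjusted p = 0.590). It read 70.3 ± 10.7 CPM in HFD-C and 59.2 ± 9.36, 56.4 ± 8.28, 59.7 ± 5.00 and 54.7 ± 5.50 in order of distance.

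Of 12 TGF-beta target genes, 10 of them tested, 2 passed the adjusted test across groups, in opposite directions, where 1.45% of all genes passed. Klf10, an early TGF-beta response gene, read 19.8 ± 5.28 CPM in HFD-C, then 22.4 ± 4.97, 40.2 ± 16.3, 32.1 ± 10.1 and 15.05 ± 4.71 in order of distance (adjusted p = 0.00578 among the 6 groups, edgeR). Bhlhe40, which is also a clock-linked repressor, read 90.2 ± 21.4 CPM in HFD-C, then 57.0 ± 12.0, 48.6 ± 7.65, 55.3 ± 11.7 and 109 ± 35.6 in order of distance (edgeR adjusted p = 0.00722 among the 6 groups and 0.0285 among the running groups). Unlike Tgfb2, neither gene's HFD-U mean lay on the same side of HFD-C as its HFD-50% mean. Of the 17 genes for YAP, TAZ, TEAD and the Hippo kinases, 1 was lower in HFD-25%, where 3.58% of all genes were. None was called in the other running groups, and the list medians were -0.03 to 0.03. Yap1 itself read 43.3 ± 4.81 CPM in HFD-C and 44.4 ± 5.67 over the running mice (SD, n = 24), and the TEAD cofactor Vgll3 3.70 ± 1.41 and 3.88 ± 1.17. Outside the member genes, 18 YAP and TAZ targets were listed, of which 13 or 14 were tested per group. None of these was called in HFD-25%, HFD-75% or HFD-U. In HFD-50% 2 were higher and 2 lower, where 5.8 and 4.89% of all genes were. The higher ones were Gadd45a (log2 0.69, SE 0.26, edgeR adjusted p = 0.365) and Amotl2 (log2 0.47, SE 0.19, adjusted p = 0.391). The rule for naming genes did not reach the 2 lower ones. In HFD-50% the member targets Ccn1, Ccn2 and Ankrd1 had log2 values of -0.14 (SE 0.29), -0.21 (SE 0.22) and -0.36 (SE 0.40), within 1 SE of 0. Ccn1 was lower at an unadjusted p in HFD-25% (log2 -0.60, SE 0.20) and HFD-U (log2 -0.81, SE 0.18), where 3.58 and 3.31% of all genes were lower. Neither Ccn2 nor Ankrd1 was called in a running group in the reported fits. Of 4 other CCN genes, only Ccn3 was tested in the running groups, and it read 5.02 ± 1.94 CPM in HFD-C and 5.47 ± 2.18 over the running mice.

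Mrtfa, the actin-sensing coactivator of SRF, changed among the groups (adjusted p = 0.00881, edgeR) and with distance (adjusted p = 0.0400). It read 22.1 ± 3.75 CPM in HFD-C, and 18.4 ± 3.11, 12.6 ± 4.23, 14.1 ± 2.75 and 23.5 ± 9.62 CPM in order of distance. Of the 15 SRF and MRTF genes, 14 of them tested, 0 to 2 were lower and 0 to 1 higher per running group, and the cytoskeletal actin Actg1 read 121 ± 38.0 CPM in HFD-C and 121 ± 33.0 over the running mice. In the list of 10 TWEAK and non-canonical NF-kB genes, 9 of them tested, 2, 2, 2 and 0 were lower in order of distance. For this list and the others here, 3.58, 4.89, 3.16 and 3.31% of all genes were lower and 3.4, 5.8, 2.31 and 2.15% higher. The receptor adaptor Traf2 changed among the groups (edgeR adjusted p = 0.00518), at 21.7 ± 2.64 CPM in NFD-C and 17.9 ± 2.11 in HFD-C. In order of distance it read 15.5 ± 1.86, 13.7 ± 2.52, 14.9 ± 1.45 and 19.02 ± 3.31. The kinase Map3k14 was lower in HFD-25% at an unadjusted p (log2 -0.58, SE 0.25, edgeR adjusted p = 0.687), the group with the lowest Tnfrsf12a mean. Of 24 genes for titin and its Z-disc partners, 23 of them tested, 2 were lower in HFD-25% and HFD-U, 2 lower and 1 higher in HFD-50% and 1 higher in HFD-75%. The actin-binding repair gene Xirp1 read 185 ± 160 CPM in HFD-C and 83.6 ± 13.9, 110 ± 60.7, 108 ± 44.4 and 93.4 ± 25.6 in order of distance. The ubiquitin ligase Trim63 read 394 ± 62.4 in HFD-C and 469 ± 242, 860 ± 693, 826 ± 552 and 376 ± 102 in the same order. Of 13 immediate early genes, 10 of them tested, 1 was lower in each restricted group. Nr4a1 changed among the groups (edgeR adjusted p = 0.0349) at 238 ± 54.8 CPM in HFD-C and 201 ± 60.9, 118 ± 30.1, 154 ± 38.7 and 219 ± 73.2 in order of distance. Nr4a3 read 5.21 ± 3.73 in HFD-C and 1.52 ± 0.514, 3.17 ± 1.95, 3.11 ± 0.957 and 2.77 ± 2.58 in the same order. In the 2 low-share HFD-C mice Klf10 read 17.2 and 23.9, Bhlhe40 73.5 and 93.8, Mrtfa 20.7 and 26.4, Traf2 14.8 and 20.1 and Nr4a1 238 and 323 CPM (lower and higher mouse).

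**Figure D5:**
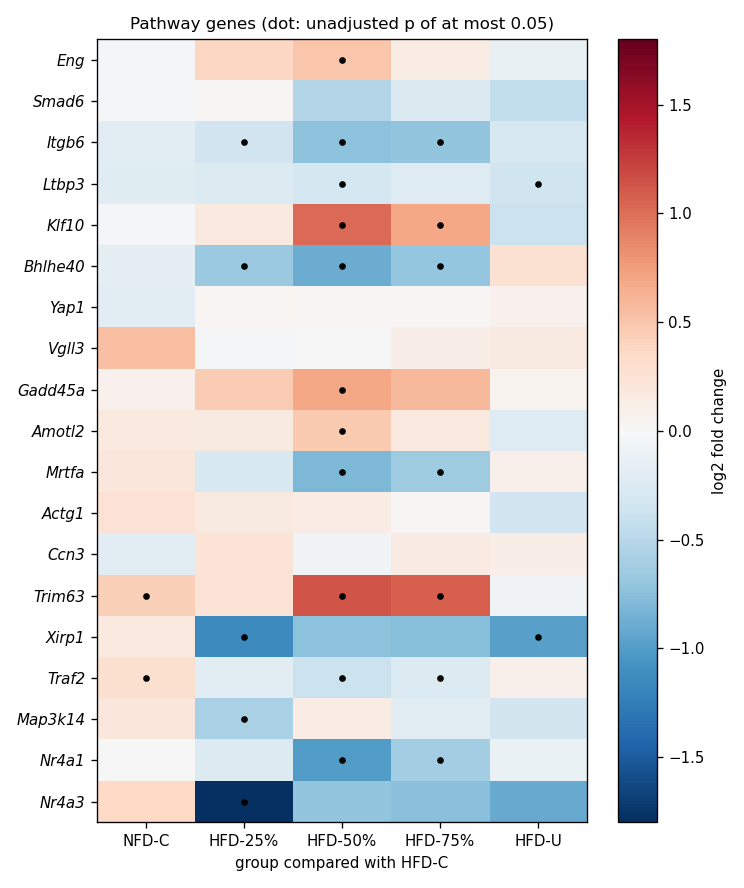
Log2 fold change against HFD-C (colour) of 19 pathway genes named by rule (rows) in NFD-C and the 4 running groups (columns), from edgeR, with a dot where the unadjusted p was at most 0.05. Klf10 and Trim63 are red and Bhlhe40, Mrtfa and Nr4a1 blue in HFD-50% and HFD-75%, and their HFD-U cells are pale or of the other colour.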

How the data were processed

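Gastrocnemius poly(A) RNA of 36 mice was sequenced in pairs of reads, 1 library per mouse. Per the labels and the study's methods, the authors aligned reads with HISAT2 2.0.5 (submitters' notes: mm10) and counted them per gene with featureCounts 1.5.0-p3, and deposited unnormalised counts for 46893 features, with coordinates on GRCm39 chromosome records. Whether counting used strand is not given in the sources used here. Here each comparison was fitted with edgeR 4.0.16 (R 4.3.3; quasi-likelihood F-test, TMM, minimum mean count 25 in the libraries fitted), with Benjamini-Hochberg adjustment over all genes of the fit. There were 6 pairs of groups, a quadratic in running distance over the 5 high-fat groups, and tests among 4 and among 6 groups. The threshold was 0.05 for adjusted and unadjusted p, both two-sided. CPM used TMM factors over all 36 libraries. Alternatives were DESeq2 1.42.0, RLE size factors, no minimum count, the replicate number as a block, the ribosomal share or slow fibre level as a covariate, 1 library set, 1 fit over 36 libraries, and each mouse left out. Covariates for fibroblast and tendon markers and leaving HFD-50% replicate 4 out of the tests over several groups were added after seeing the data.

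The member genes and the gene lists were chosen with earlier results of these data known. Pathway genes named are those of each list with an adjusted p of at most 0.05 in any test, plus the 2 of smallest p among the 6 groups. Low-share and Hcfc1r1 values were added after seeing the data. Genes most like a member were the 3 with the highest Pearson r of deviations from the group mean of log2 CPM among the genes tested. The labels do not say that mice with 1 number share a litter or day. Same-numbered mice had a correlation over 0.1, a cut chosen here, in all 6 pairs only between HFD-C and HFD-U (0.125 to 0.510). Between HFD-25% and HFD-U it was 5 of 6 pairs, with a median of 0.271 against 0.272. Mice of different numbers were not compared. The reported fits used no pairing, and the block by number was an alternative setting only. Libraries of a group differed by 14.7 to 181 times the sampling noise (chi-square over its degrees of freedom, 90 pairs of mice), so none was a repeat. Counting error weighs most on Ankrd1 and Tgfb1, with as few as 27 and 36 counts in a library, then on Tnfrsf12a and Tgfb2, with as few as 60 and 83. The other member genes had at least 151 counts in every library. The p-values weigh a group difference against the variation between mice, and the SDs give the spread itself. The edgeR fits of HFD-50% against HFD-C and among the 6 groups were run on simulated data, with no outcome given here. The other fits were not.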

Additional observations from a re-analysis of the deposited data

Results flagged for a closer look

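In 6 of 54 combinations of gene and group, 1 mouse lay apart from the other 5 by more than Dixon's 95% critical value, and chance alone gives about 1 in 20 such groups. Ccn1 read 74.1 CPM in HFD-50% replicate 4, where the next mouse read 28.9. In the same mouse Tnfrsf12a read 42.8 CPM, where the next read 15.5. Ankrd1 read 1.85 CPM in HFD-C replicate 6, where the next lowest mouse read 11.99, and 20.8 CPM in HFD-50% replicate 3, where the next highest read 9.41. In NFD-C replicate 1 Csrp3 read 409 CPM, where the next mouse read 109.8, and Tnfrsf12a read 59.3 CPM, where the next read 26.8. No library was left out of the reported values for this.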

How the results depend on the processing

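Of 1242 log2 fold changes of member genes under another setting, 91 changed sign, 35 of them with the ribosomal share or 1 library set and 30 with a mouse left out. Only 1 of the 91 had been at an unadjusted p of at most 0.05, the Ccn1 value between HFD-50% and HFD-U, which became -0.00795 with the ribosomal share as a covariate. The cause was not tested. Tgfb2 stayed at or under an unadjusted p of 0.05 in all 4 running groups under each of the 11 other settings. With 1 mouse left out it did so in 11 of 12 fits in HFD-U, where the call was lost without HFD-C replicate 3, and in all 12 in each restricted group. Its adjusted p for distance became 0.139 with 1 library set (2 HFD-C mice), 0.0747 without the mice numbered 1 and 0.0513 with tendon markers as a covariate. Its adjusted p among the 6 groups became 0.0564 with the ribosomal share.

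Counts of member genes at an unadjusted p moved as follows, with the genes called over all genes tested in parentheses. With the ribosomal share they were 1 in HFD-75% (1020 of 12113), 2 in HFD-U (1490 of 12023) and 2 in NFD-C (864 of 12247). They were 0 between HFD-50% and HFD-U (543 of 11851), 1 for distance (1573 of 12006), 0 among the running groups (380 of 11935) and 2 among the 6 groups (1494 of 12053). The reported fits called 657 of 12023 genes in HFD-U and 1472 of 11851 between HFD-50% and HFD-U. With 1 library set they were 1 in HFD-50% (1122 of 11867), 1 in HFD-75% (1069 of 11885) and 1 for distance (1384 of 11933). With fibroblast markers they were 4 in HFD-50% (1122 of 12116), 2 in NFD-C (558 of 12247) and 5 for distance (1423 of 12006). With tendon markers they were 0 in NFD-C (1019 of 12247), 0 between HFD-50% and HFD-U (822 of 11851) and 0 among the running groups (567 of 11935). The slow fibre covariate gave 1 between HFD-50% and HFD-U (1104 of 11851). No minimum count gave 2 in NFD-C (2240 of 26088) and 2 among the running groups (2668 of 28226), where DESeq2 gave 2 (1028 of 11935). Without the mice numbered 1 there were 0 among the running groups (1156 of 11978) and 2 among the 6 groups (1668 of 12021). Leaving out 1 mouse gave 1 to 5 in HFD-50% (1026 to 1644 genes called over all), 2 to 4 in HFD-75% (514 to 807), 0 to 2 in NFD-C (377 to 784) and 1 to 2 between HFD-50% and HFD-U (1010 to 2070). Without HFD-50% replicate 4 there were 5 for distance (1397 of 12005). With the replicate number as a block there were 2 in NFD-C (850 of 12247), 3 among the running groups (1478 of 11935) and 5 in HFD-U (1232 of 12023), and the adjusted p of Tgfb2 in HFD-50% became 0.0228. In every group the labels give same-numbered mice nothing in common but the number.

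Running coincided with a low ribosomal share in all but 2 control mice, so those values rest on 2 mice. Only males and 1 muscle were read, and bulk counts limit Tgfb1 to 36 to 150 counts per library.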
